A study of Mus musculus with 40 samples.

Results

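Genes of glycolysis and targets of the hypoxia-inducible factors were followed through RNA-seq of CD11b+ cells (microglia and other myeloid cells), sorted from naïve and glioma-bearing mouse hemispheres. The set was a list of 37 named genes: 2 glucose transporters, 17 glycolytic enzymes, 4 regulators and exporters at the ends of the pathway, 3 genes of oxygen sensing and 11 other targets of hypoxia-inducible factors (HIF). These were 37 of 21849 protein-coding genes in each of 3 deposited tables, and the list was applied by gene name, with no threshold on a measured value, though it was drawn up with earlier results of these data known. A mean of at least 1 RPKM (reads per gene, divided by gene length and by the sample's total) was reached by 34 members in the GL261 table at 21 days post-implantation (DPI), by 35 in the GL261 table at 28 DPI and by 34 in the U87-MG table.

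The mice were males, C57BL/6 or Athymic Nude-Foxn1nu (which lack mature T cells), aged 10 to 12 weeks according to the methods of the study. In the GL261 experiment at 21 DPI, C57BL/6 mice carried GL261 tdTomato+luc+ cells, a mouse glioma line, in the striatum. They received through an osmotic pump water as vehicle, 7aaRGD or 7aaRAE at 2 mg/ml. 7aaRGD is a peptide with the integrin-binding RGD motif, and 7aaRAE is a control peptide in which that motif is changed to RAE. Each of these groups had 3 samples, as did naïve C57BL/6 mice, and every sample was a pool of 2 animals. In the GL261 experiment at 28 DPI, the groups were vehicle with IgG (4 mice), 7aaRGD with IgG (4 mice), the antibody anti-PD-1 with vehicle (3 mice) and 7aaRGD with anti-PD-1, called here the combination (3 mice), 1 mouse per sample. The antibody was injected 4 times between days 8 and 14, at 10 mg/kg each. The deposited labels call the 28 DPI mice nude, while the methods describe C57BL/6 mice, and these samples were placed by their treatment. In the U87-MG experiment, nude mice carried the human glioma line U87-MG with RFP and received vehicle, 7aaRGD or 7aaRAE for 21 days, with 3 samples each, again pools of 2 animals. The naïve nude mice and sample 4 each of anti-PD-1 and of the combination were not analysed here.

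Glycolysis splits glucose into pyruvate and yields energy without oxygen. Glucose enters through transporters of the Slc2a family, hexokinases and phosphofructokinases commit it to the pathway, and lactate dehydrogenase with the lactate exporter Slc16a3 disposes of the product. When oxygen is short, prolyl hydroxylases of the Egln family no longer mark HIF-1α (encoded by Hif1a) for destruction, and HIF then binds short motifs near its target genes, which include most glycolytic enzymes and the angiogenic factor Vegfa. Macrophages also raise HIF-1α and glycolysis during inflammatory activation with oxygen present, so the program is known from hypoxic tumor regions and from activated myeloid cells alike.

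HIF recognizes the core ACGTG or GCGTG, so the promoter letters of some members are given here as the reference point for the values below. RefSeq windows on GRCm38.p6 (the build mm10), from 250 bases before to 50 bases after a transcript start, were at hand for 34 of the 37 members, and not for Slc2a3, Bnip3l and Ndrg1. At least 1 of the cores, counted on both strands, was found in some window of 31 of these 34 members (91.2%), against 46.7% of 27025 genes. Gpi1, Tpi1 and Eno2 had none. By window, 41 of 53 windows of members (77.4%) held a core, against 43.8% of 32851 windows, and 27 (50.9%) held at least 2, against 20.6%. These cores are short and rich in CG, so a match is a description and not a binding site. Members were listed as glycolysis genes or HIF targets, and the other genes were all those with a window, expressed or not. The excess is therefore no independent evidence. The 250 bases before the start are printed for the transporter Slc2a1, for the enzymes Pgk1, Ldha and Tpi1, and for the mitophagy receptor Bnip3, 5 members that range from no core to several. They are written 5′ to 3′ on the gene's strand, with cores in capitals (CACGT and CACGC are the cores of the opposite strand, and CACGTG holds 1 core on each). Slc2a1 lies at chr4:119108495-119108744 (+), Pgk1 at chrX:106186850-106187099 (+), Ldha at chr7:46845554-46845803 (+), Bnip3 at chr7:138909507-138909756 (−) and Tpi1 at chr6:124814159-124814408 (−).
Slc2a1: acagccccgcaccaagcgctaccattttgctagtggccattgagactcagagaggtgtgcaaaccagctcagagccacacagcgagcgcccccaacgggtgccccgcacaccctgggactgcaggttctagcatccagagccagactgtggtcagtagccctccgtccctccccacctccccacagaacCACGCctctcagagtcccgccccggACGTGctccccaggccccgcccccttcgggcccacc
Pgk1: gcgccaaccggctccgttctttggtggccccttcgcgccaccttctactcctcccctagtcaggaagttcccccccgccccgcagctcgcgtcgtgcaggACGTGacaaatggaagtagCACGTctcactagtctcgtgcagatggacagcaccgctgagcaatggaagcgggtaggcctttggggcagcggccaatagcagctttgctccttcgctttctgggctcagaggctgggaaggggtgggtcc
Ldha: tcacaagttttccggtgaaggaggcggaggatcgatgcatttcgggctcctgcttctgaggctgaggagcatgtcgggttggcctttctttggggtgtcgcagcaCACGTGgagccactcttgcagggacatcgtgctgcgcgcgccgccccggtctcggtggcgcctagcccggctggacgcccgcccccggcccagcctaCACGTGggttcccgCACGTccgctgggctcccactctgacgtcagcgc
Bnip3: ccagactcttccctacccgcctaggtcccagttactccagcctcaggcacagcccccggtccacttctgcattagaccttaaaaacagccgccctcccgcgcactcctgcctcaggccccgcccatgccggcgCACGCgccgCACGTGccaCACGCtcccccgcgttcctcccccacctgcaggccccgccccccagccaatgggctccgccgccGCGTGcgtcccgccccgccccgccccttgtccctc
Tpi1: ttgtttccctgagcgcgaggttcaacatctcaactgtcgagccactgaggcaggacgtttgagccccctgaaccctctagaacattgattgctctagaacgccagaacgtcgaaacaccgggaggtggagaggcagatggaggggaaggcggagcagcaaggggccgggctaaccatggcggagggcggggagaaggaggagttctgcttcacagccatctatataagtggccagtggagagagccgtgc
In these stretches Slc2a1 and Pgk1 held 2 cores each, Ldha and Bnip3 held 5 each, and Tpi1 held 0.

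Values are in RPKM, after a constant of 2 that the deposited tables carry was taken off. The depth per sample is unknown, and between 3.13% and 8.78% of values per sample were below the constant and set to 0. Differences are given as log2(RPKM + 1), a scale that understates changes of genes near 1 RPKM, with the standard error (SE) and the p-value of limma adjusted over all genes tested. Genes were called at an adjusted p under 0.05. The 3 tables were normalised separately, so tests stay within a table. Markers of the sorted cells were high in every group: 6 pan-myeloid markers summed to 4955 to 5140 RPKM in naïve samples, 2697 to 3117 RPKM under GL261 vehicle at 21 DPI, 2768 to 3216 RPKM over the samples at 28 DPI and 3639 to 5058 RPKM over those of U87-MG tumors.

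CD11b+ cells of GL261 tumors carried far more glycolytic RNA than those of naïve brain. The 17 enzymes together made up 0.244% ± 0.000923 of the summed coding RPKM in naïve samples and 0.774% ± 0.0787 under vehicle at 21 DPI (SD, n = 3 each). Of 35 members tested, 24 were higher in vehicle, 9 lower and 2 not called, and all 33 called members had groups that did not overlap, as did 85.4% of all genes tested. Over all 9728 genes tested, 34.6% were higher and 48.2% lower, so most genes differed in this comparison. The members' median difference was 1.75 (log2), against −0.14 over all genes. Adm and Eno2 stayed under the filter. Pfkp, Vegfa, Ndrg1, Egln3 and Ankrd37 were under 1 RPKM in naïve samples and passed the filter through the tumor group alone, and Slc2a3 passed through the naïve group alone, so the direction of these 6 members was fixed by the filter and their values are given as a description. Median-of-ratios scaling moved the median of all genes from −0.14 to 0.02, and 25 members were then higher and 7 lower, with a median of 1.92. Tumor, surgery and pump came together in the vehicle mice and cannot be told apart.

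The cell mixture moved with this comparison. The summed level of 10 microglia markers was 17015 to 17694 RPKM in naïve samples and 1425 to 2066 RPKM under vehicle, with 10 of 10 lower, and that of 10 monocyte and macrophage markers was 38.8 to 45.4 RPKM and 2186 to 3952 RPKM, with 10 of 10 higher. No marker of either list was at 0 in all samples of a group. Neutrophil markers summed to 393 to 488 RPKM in naïve samples and 131 to 268 RPKM under vehicle, with 6 of 9 tested lower and 1 higher. T and NK cell markers summed to 1.17 to 2.67 RPKM and 278 to 582 RPKM. Of those 10 markers, 9 had a mean under 1 RPKM in naïve samples. In bulk samples a change in the share of cell types and a change of RNA per cell cannot be told apart, and the part of the mixture in the members' differences was not tested.

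Among the transporters, Slc2a1 (GLUT1, the broadly expressed glucose importer) was at 23.1, 22.1 and 22.5 RPKM in naïve samples and at 74.5, 91.7 and 105 RPKM under vehicle. The vehicle samples were all above the naïve ones, and the difference was 1.94 (SE 0.112, adjusted p = 1.0e-06). Slc2a3 (GLUT3, a high-affinity importer) was low, at 1.69, 1.55 and 1.68 RPKM in naïve samples and 0.987, 0.643 and 0.478 RPKM under vehicle, below the filter in the latter.

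Of 16 glycolytic enzymes tested, 14 were higher under vehicle and 2 lower, with a median difference of 1.75. Pfkp, the platelet-type phosphofructokinase, was at 0.321, 0.301 and 0.364 RPKM in naïve samples and 15.8, 18.1 and 19.2 RPKM under vehicle, a difference of 3.81 (SE 0.0783). Its naïve level was under 1 RPKM, whereas the liver-type Pfkl was already at a mean of 20.4 RPKM and rose to 34.6 RPKM, and the muscle-type Pfkm was lower, from 3.48 to 2.28 RPKM. Tpi1, which interconverts the triose phosphates, was at 34.7, 33.4 and 33.8 RPKM against 179, 236 and 256 RPKM, a difference of 2.67 (SE 0.122, adjusted p = 2.88e-07). Pgk1, the first ATP-yielding enzyme of the pathway, was at 15.9, 16.1 and 16.7 RPKM against 93.7, 109.6 and 115 RPKM, a difference of 2.63 (SE 0.0797, adjusted p = 4.47e-08). In both genes each vehicle sample was far above the highest naïve sample. Pkm, which makes pyruvate, was at 74.9, 73.6 and 73.5 RPKM against 358, 398 and 425 RPKM, a difference of 2.39 (SE 0.0711, adjusted p = 4.04e-08). Ldha, which turns pyruvate into lactate, averaged 51.5 RPKM in naïve samples and 240.02 RPKM under vehicle. The hexokinases, the entry enzymes, were split: Hk3 had means of 42.2 and 110.5 RPKM and Hk1 of 8.30 and 13.96 RPKM, while Hk2 was lower under vehicle, with means of 79.9 and 52.8 RPKM.

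At the branch points the members did not move as one. Slc16a3 (MCT4, which exports lactate) rose from a mean of 14.4 to 52.6 RPKM, a difference of 1.80 (SE 0.128). Pdk1, which holds pyruvate back from the mitochondria, was lower by 0.75, and Pfkfb4, a bifunctional regulator of phosphofructokinase, was also lower. Its relative Pfkfb3 was not called (−0.08, 95% interval −0.37 to 0.21).

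Among oxygen sensing and HIF targets, several members were near absence in naïve samples, among them Vegfa, Ndrg1 and Egln3, whose direction the filter fixed. Vegfa, the main angiogenic growth factor, was at 0.449, 0.393 and 0.431 RPKM in naïve samples and at 25.0, 29.4 and 26.7 RPKM under vehicle, a difference of 4.30 (SE 0.0699). Vegfa was thus hardly present in naïve cells, with the groups wide apart. Ndrg1, a stress-response gene, was at 0.392, 0.358 and 0.434 RPKM against 8.13, 10.5 and 11.6 RPKM, a difference of 2.98 (SE 0.115). Mif, a cytokine gene under HIF control, was at 40.9, 38.2 and 38.2 RPKM against 253, 288 and 307 RPKM, a difference of 2.82 (SE 0.0787, adjusted p = 3.05e-08). Both stood apart in the same way as Vegfa, Mif from a much higher start. Hif1a itself was at 26.7, 25.4 and 26.6 RPKM against 86.4, 117 and 108 RPKM. Egln3, the prolyl hydroxylase that HIF induces, was at 0.743, 0.448 and 0.653 RPKM against 7.21, 8.16 and 8.32 RPKM, a difference of 2.46 (SE 0.0885), while Egln1, the main oxygen sensor, was not called (0.06, 95% interval −0.09 to 0.21).

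Of the 10 other HIF targets tested, 6 were higher (median of the 10, 1.60) and 4 lower in the tumor. P4ha1, a collagen prolyl hydroxylase, was at 128, 151 and 151 RPKM in naïve samples and at 50.4, 42.9 and 50.6 RPKM under vehicle, a difference of −1.56 (SE 0.0915, adjusted p = 1.1e-06). Mxi1, an antagonist of Myc, was at 12.2, 12.9 and 12.2 RPKM against 7.40, 6.30 and 6.33 RPKM, a difference of −0.81 (SE 0.0694, adjusted p = 1.04e-05). The mitophagy receptor Bnip3l was lower by 0.63 and the histone demethylase Kdm3a by 0.34, and none of the 4 overlapped between the groups. Bnip3, the sister gene of Bnip3l, was higher by 1.27.

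**Figure D1:**
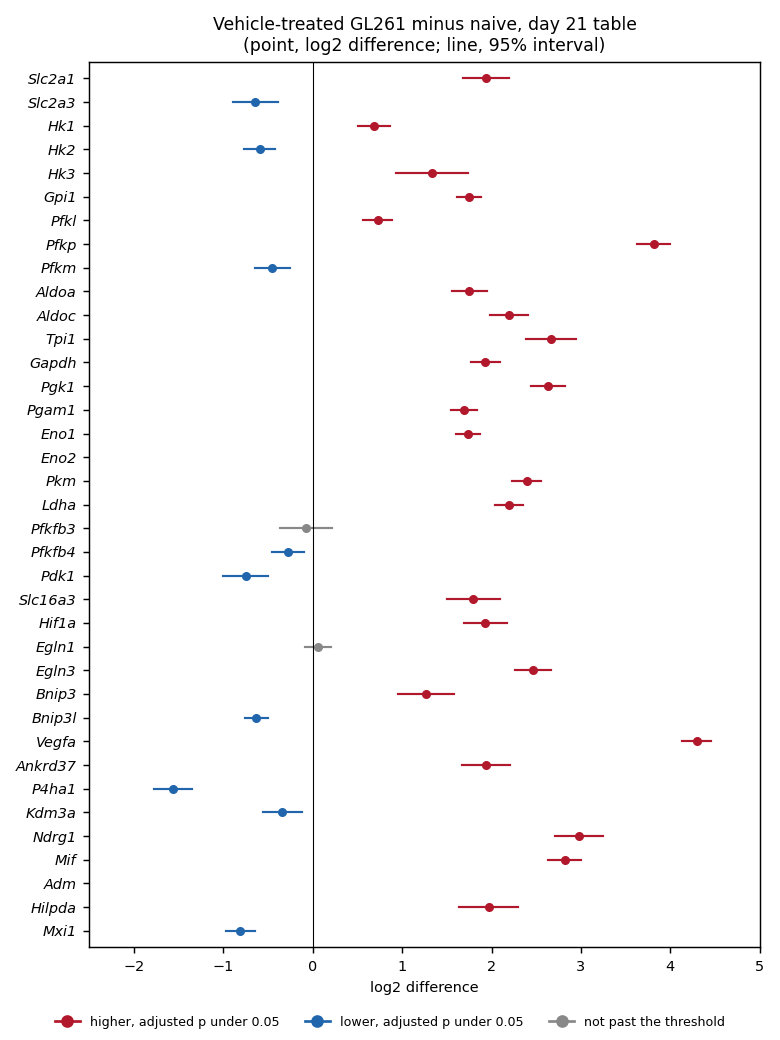
Differences in log2(RPKM + 1) between GL261 vehicle at 21 DPI and naïve samples for the 35 members tested, ordered by role, with 95% intervals as bars. Red marks members called higher (24), blue those called lower (9) and grey those not called (2), and Vegfa and Pfkp lie farthest to the right.

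Genes of neighboring pathways were measured in the same contrast, in which 34.6% of all genes were higher and 48.2% lower. All 7 genes of the pentose phosphate pathway, which branches off glycolysis to make NADPH, were higher, with a median of 0.72, among them Tkt (1.36), Taldo1 (1.22) and Pgd (0.92). Of 12 tested genes from 21 other glycolysis, glucose and lactate genes, 3 were higher and 9 lower (median −1.01). The fructose transporter Slc2a5, a gene of resting microglia, had a mean of 299.8 ± 8.75 RPKM in naïve samples and 15.8 ± 5.27 RPKM under vehicle (SD, n = 3 each), and Ldhb, the lactate-consuming partner of Ldha, was lower by 2.35. In contrast, Slc2a6, a transporter of inflammatory macrophages, was higher by 3.21. Of 17 other HIF pathway genes tested, 10 were higher and 5 lower (median 0.62), with Bhlhe40 at 4.76, Ddit4 at 2.39 and Hmox1 at 2.21. Of the 5 genes of the pyruvate dehydrogenase complex, 2 were higher and 1 lower, with differences of 0.59 for Pdha1, 0.36 for Dlat and −0.33 for Pdhx.

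**Figure D2:**
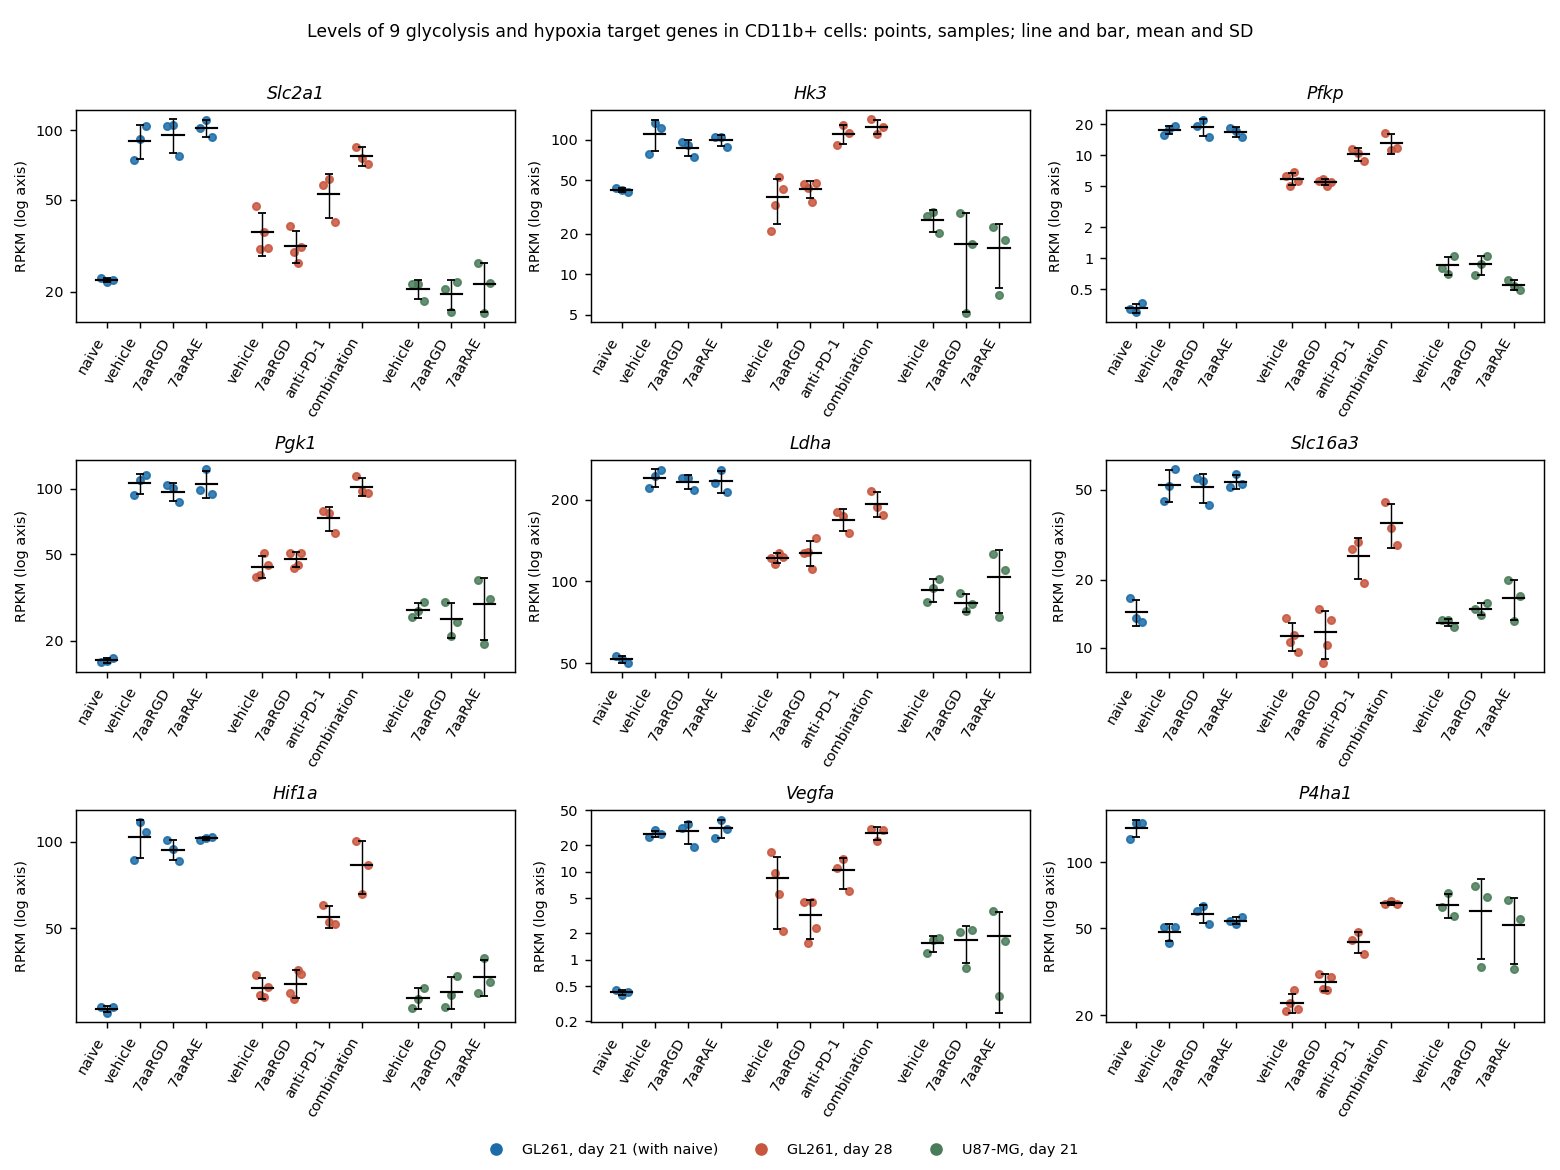
RPKM (log axis) of 9 members in each of 11 groups, with 1 point per sample, a line at the group mean and a bar for the SD. The 3 tables were normalised separately, and the group means of Slc2a1 and Ldha are highest in GL261 tumors at 21 DPI and lowest in naïve samples or under U87-MG.

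Across the vehicle groups the members stood at different heights. The enzymes' share of coding RPKM was 0.244% in naïve samples, 0.270% ± 0.0128 under U87-MG vehicle (n = 3), 0.446% ± 0.0345 under GL261 vehicle at 28 DPI (n = 4) and 0.774% under GL261 vehicle at 21 DPI, each with its SD. For Slc2a1, the means were 22.6 ± 0.491 RPKM in naïve samples, 20.6 ± 1.95 RPKM under U87-MG vehicle, 36.4 ± 7.75 RPKM at 28 DPI and 90.3 ± 15.1 RPKM at 21 DPI. Naïve and U87-MG vehicle were the closest neighbors in this order, with the 3 naïve samples just above the 3 U87-MG ones. For Vegfa these 4 means were 0.425 ± 0.0285, 1.53 ± 0.306, 8.54 ± 6.30 and 27.0 ± 2.24 RPKM. P4ha1 followed another order, with 144 ± 13.3, 63.7 ± 7.85, 22.8 ± 2.25 and 47.9 ± 4.38 RPKM. Host strain, tumor line, time and table differ together in these values, which cannot be told apart, and no test was made across tables.

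At 28 DPI the treatments were compared in sorted CD11b+ cells, whose mixture also moved between groups, as given below. Anti-PD-1 alone raised 23 of 35 members over vehicle, lowered 3 and left 9 not called, against 10.8% higher and 12.2% lower over all 9737 genes. The members' median difference was 0.45, against −0.005 over all genes. The combination raised 29 of 35 and lowered 3, against 17.5% and 25.8% of all genes, with a median of 0.82 against −0.05. Of all genes called for the combination, 40.5% were higher as deposited and 51.1% after median-of-ratios scaling, which left 29 members higher and 2 lower. The enzymes' share of coding RPKM was 0.446% ± 0.0345 under vehicle, 0.470% ± 0.0358 under 7aaRGD (n = 4 each), 0.640% ± 0.0560 under anti-PD-1 and 0.757% ± 0.0624 under the combination (SD, n = 3 each). Ankrd37 was under 1 RPKM under vehicle and 7aaRGD (means of 0.957 and 0.950 RPKM) and passed the filter through the antibody groups (2.48 and 3.35 RPKM), so its direction was fixed, and it is 1 of the members higher in each of these counts. Slc2a3, among the lower members, was under 1 RPKM in the combination and passed the filter through the other groups. Its direction in comparisons of the combination was therefore fixed too. Both treatments were compared with the same 4 vehicle mice, so their results are not independent of each other. Against 7aaRGD, the combination raised 28 members, lowered 3 and left 4 not called, beside 13% and 23.5% of all genes, with a median of 0.79 against −0.07. Here 35.6% of the genes called were higher as deposited and 51.2% after that scaling, with 29 members higher and 1 lower. Groups without overlap were common: they were seen in 32.4% of all genes for anti-PD-1 against vehicle and 48.8% for the combination against vehicle. The share was 40.4% for the combination against 7aaRGD and 21.5% for the combination against anti-PD-1.

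**Figure D3:**
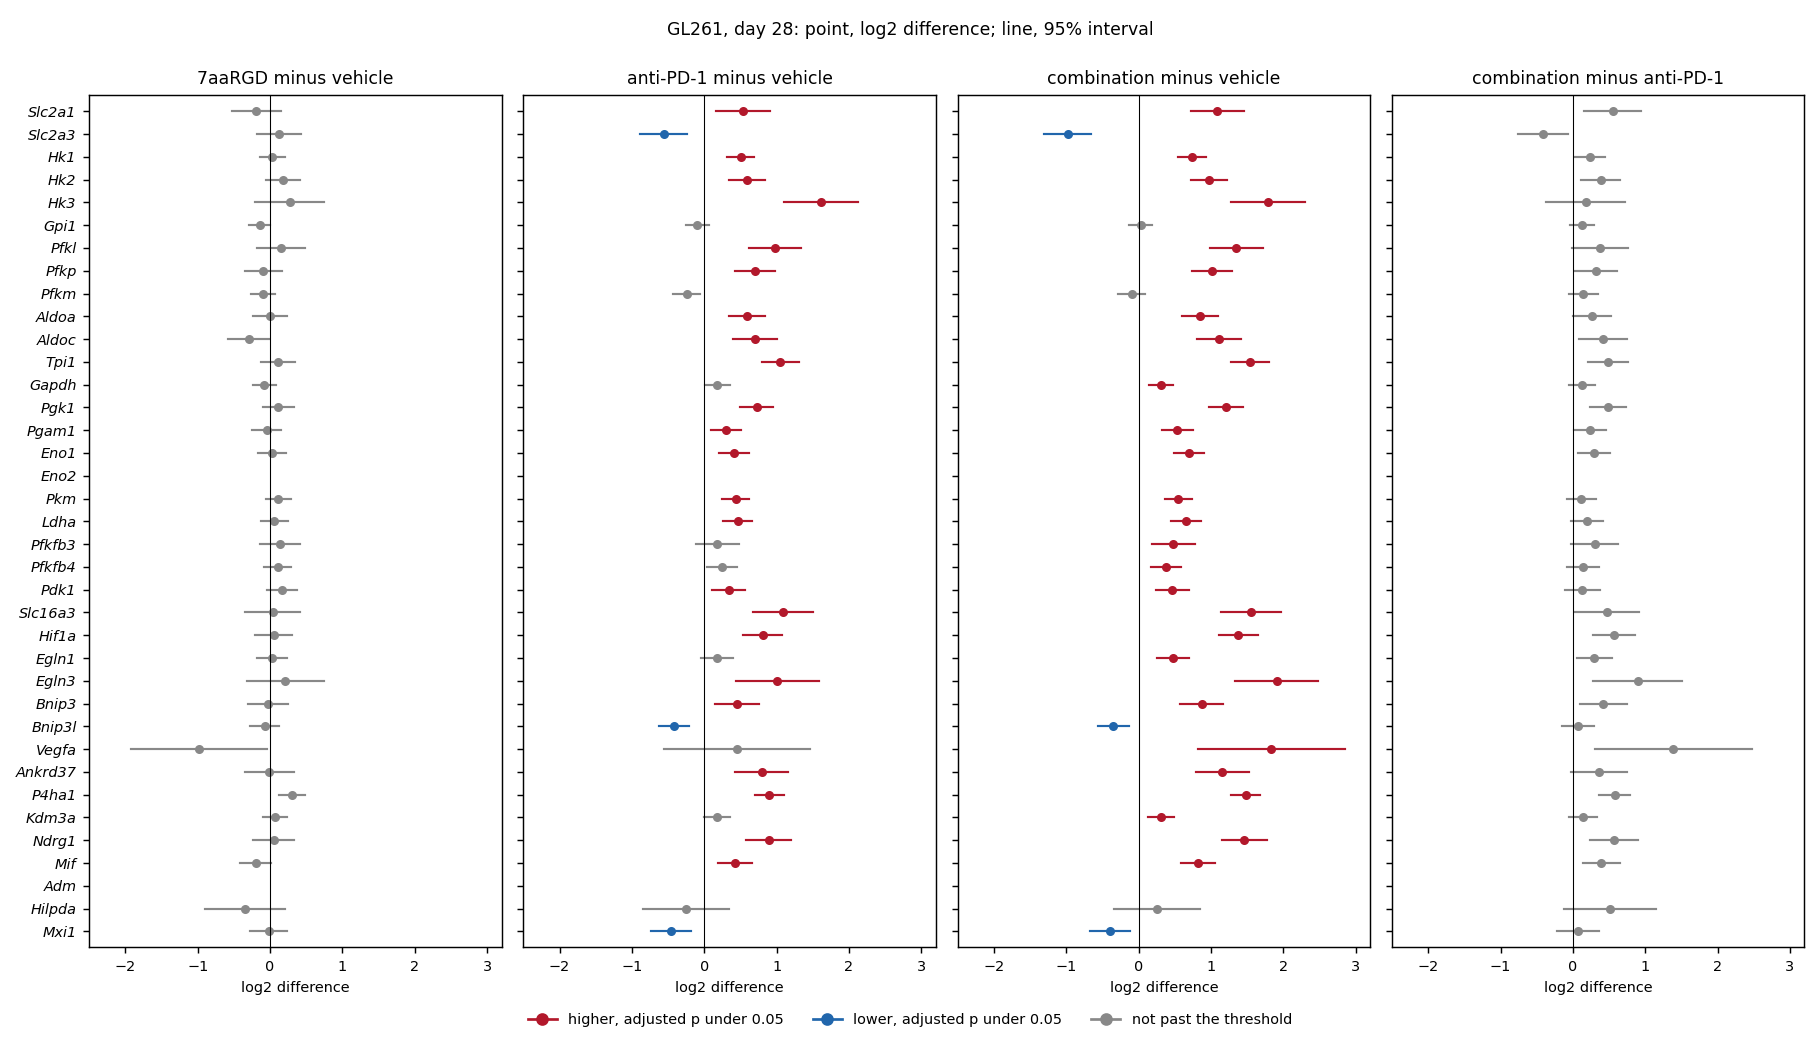
Differences in log2(RPKM + 1) for the 35 members at 28 DPI, with 95% intervals as bars, in 4 panels: 7aaRGD minus vehicle, anti-PD-1 minus vehicle, combination minus vehicle and combination minus anti-PD-1. Red marks members called higher, blue those called lower and grey those not called; the first and the last panel hold no called member.

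The transporters come first in the pathway. Slc2a1 was at 47.3, 30.7, 36.4 and 31.1 RPKM under vehicle, 38.5, 29.7, 26.8 and 31.2 RPKM under 7aaRGD, 58.3, 61.4 and 40.0 RPKM under anti-PD-1 and 85.2, 75.9 and 71.4 RPKM under the combination. The combination samples lay above all others, whereas the lowest anti-PD-1 sample lay below the highest vehicle sample. Slc2a1 differed from vehicle by 0.54 under anti-PD-1 (SE 0.171, adjusted p = 0.0378) and by 1.09 under the combination (SE 0.171, adjusted p = 0.000256), and the combination differed from 7aaRGD by 1.28 (SE 0.171, adjusted p = 0.000154). The call under anti-PD-1 was made in 10 of 18 alternative analyses, with adjusted p-values from 0.0104 to 0.160. It was lost without anti-PD-1 sample 1 or 2, without vehicle sample 2, 3 or 4, without a filter, with only the compared groups fitted and with 1 residual degree of freedom less. Slc2a3 was again opposite, at 2.82, 2.44, 2.43 and 2.26 RPKM under vehicle, 3.40, 1.78, 2.65 and 3.57 RPKM under 7aaRGD, 1.16, 1.34 and 1.60 RPKM under anti-PD-1 and 1.06, 0.548 and 0.731 RPKM under the combination. Both antibody groups were below every vehicle sample. The difference was −0.56 under anti-PD-1 (SE 0.152, adjusted p = 0.0177). Under the combination, where the filter fixed the direction, it was −0.98 (SE 0.152) against vehicle and −1.10 against 7aaRGD, given as a description.

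Of 16 enzymes tested, 13 were higher under anti-PD-1 (median 0.54) and 14 under the combination (median 0.79), with none lower. Hk3, the hexokinase of myeloid cells, was at 21.0, 32.6, 52.8 and 42.6 RPKM under vehicle, 46.9, 43.7, 34.3 and 47.8 RPKM under 7aaRGD, 91.4, 128 and 113 RPKM under anti-PD-1 and 142, 110.2 and 123 RPKM under the combination. Groups with and without the antibody did not overlap. The differences from vehicle were 1.61 (SE 0.238, adjusted p = 0.00065) under anti-PD-1 and 1.79 (SE 0.238, adjusted p = 7.31e-05) under the combination. Pfkl was at 12.6, 17.3, 21.2 and 17.3 RPKM under vehicle, 22.5, 17.3, 16.5 and 19.6 RPKM under 7aaRGD, 29.8, 42.6 and 31.1 RPKM under anti-PD-1 and 52.9, 42.7 and 39.2 RPKM under the combination, with differences from vehicle of 0.97 (SE 0.168, adjusted p = 0.0017) and 1.35 (SE 0.168, adjusted p = 4.61e-05). Tpi1 was at 61.8, 69.5, 77.5 and 61.2 RPKM under vehicle, 75.4, 61.8, 77.0 and 77.1 RPKM under 7aaRGD, 159, 147 and 118 RPKM under anti-PD-1 and 221, 187 and 185 RPKM under the combination. Tpi1 rose in steps without overlap between vehicle, anti-PD-1 and combination, by 1.05 (SE 0.120, adjusted p = 0.000139) and 1.54 (SE 0.120, adjusted p = 1.56e-06) over vehicle. Its step from anti-PD-1 to the combination was not called, and 21.5% of all genes were apart between those groups. Aldoc, a brain-type aldolase, was at 4.39, 6.13, 6.43 and 6.05 RPKM under vehicle, 4.67, 4.55, 4.57 and 4.05 RPKM under 7aaRGD, 9.65, 12.2 and 8.20 RPKM under anti-PD-1 and 16.6, 13.1 and 11.2 RPKM under the combination. Its largest difference was between the combination and 7aaRGD, at 1.41 (SE 0.143, adjusted p = 2.9e-05). Gpi1 and Pfkm were called in neither comparison with vehicle.

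RNA of the lactate exporter Slc16a3 was higher with the antibody. It was at 13.5, 10.6, 11.4 and 9.61 RPKM under vehicle, 14.9, 8.59, 10.2 and 13.2 RPKM under 7aaRGD, 27.3, 29.3 and 19.4 RPKM under anti-PD-1 and 44.0, 33.8 and 28.5 RPKM under the combination. The antibody groups were above all other samples, by 1.09 (SE 0.192, adjusted p = 0.00184) and 1.56 (SE 0.192, adjusted p = 4.27e-05) over vehicle. The other regulators moved less: Pdk1, Pfkfb3 and Pfkfb4 were higher by 0.47, 0.48 and 0.38 under the combination, all called, and by 0.33, 0.18 and 0.24 under anti-PD-1, where of these Pdk1 alone was called.

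Oxygen sensing followed. Hif1a was at 34.4, 29.2, 28.9 and 31.3 RPKM under vehicle, 29.7, 28.5, 35.7 and 34.6 RPKM under 7aaRGD, 60.3, 52.7 and 51.7 RPKM under anti-PD-1 and 101, 65.8 and 83.1 RPKM under the combination. The 4 groups fell into the order vehicle and 7aaRGD, then anti-PD-1, then combination, with differences from vehicle of 0.81 (SE 0.127, adjusted p = 0.000911) and 1.38 (SE 0.127, adjusted p = 4.73e-06). The step of Hif1a from anti-PD-1 to the combination was not called. Egln3 was at 2.43, 3.16, 3.09 and 2.00 RPKM under vehicle, 4.66, 2.00, 4.35 and 2.42 RPKM under 7aaRGD, 7.62, 8.68 and 3.71 RPKM under anti-PD-1 and 14.5, 14.3 and 9.67 RPKM under the combination. Egln3 differed from vehicle by 1.01 (SE 0.267, adjusted p = 0.0163) and 1.91 (SE 0.267, adjusted p = 0.00011), the largest difference of any member in the second comparison. Egln1 was higher by 0.47 under the combination and not called under anti-PD-1.

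Among the other HIF targets, 5 of 10 tested rose and 2 fell under anti-PD-1, and 7 rose and 2 fell under the combination. P4ha1 was at 21.0, 22.7, 26.0 and 21.5 RPKM under vehicle, 30.9, 26.3, 26.0 and 30.0 RPKM under 7aaRGD, 44.2, 47.8 and 38.2 RPKM under anti-PD-1 and 64.2, 66.3 and 64.8 RPKM under the combination. The groups stood in steps without overlap, with 7aaRGD level with or above vehicle and differences from vehicle of 0.90 (SE 0.0925, adjusted p = 9.13e-05) and 1.48 (SE 0.0925, adjusted p = 4.84e-07), whereas in the comparison with naïve brain P4ha1 had been the member that fell most. The step of P4ha1 from anti-PD-1 to the combination was not called. Ndrg1 was at 1.47, 2.01, 1.39 and 1.25 RPKM under vehicle, 1.76, 1.44, 1.24 and 2.04 RPKM under 7aaRGD, 3.62, 4.23 and 3.18 RPKM under anti-PD-1 and 5.35, 7.61 and 5.04 RPKM under the combination, with differences from vehicle of 0.89 (SE 0.143, adjusted p = 0.00104) and 1.46 (SE 0.143, adjusted p = 7.6e-06). Vegfa was the most scattered member, at 16.8, 9.59, 5.63 and 2.13 RPKM under vehicle, 4.52, 1.54, 4.49 and 2.32 RPKM under 7aaRGD, 11.0, 13.9 and 6.07 RPKM under anti-PD-1 and 30.6, 22.2 and 29.8 RPKM under the combination. The combination alone stood clear of all other samples. Vegfa differed from vehicle by 1.84 under the combination (SE 0.471, adjusted p = 0.00679) and from 7aaRGD by 2.82 (SE 0.471, adjusted p = 0.000638), and anti-PD-1 alone gave 0.45 (95% interval −0.56 to 1.46, not called). Mxi1 and Bnip3l fell in all 3 comparisons with an antibody group, Mxi1 by 0.46, 0.39 and 0.37 and Bnip3l by 0.42, 0.35 and 0.27 for anti-PD-1 against vehicle, the combination against vehicle and the combination against 7aaRGD. In the last of these, Bnip3l was called in 8 and Mxi1 in 9 of 18 alternative analyses, and in the first and second Mxi1 was called in 13 and 12 of 18. Bnip3l was at 28.1, 25.5, 22.9 and 27.8 RPKM under vehicle, 18.8, 19.6 and 19.2 RPKM under anti-PD-1 and 19.0, 20.8 and 20.8 RPKM under the combination, and Mxi1 at 9.56, 11.3, 7.41 and 8.13, then 5.61, 6.40 and 6.78, then 6.19, 6.98 and 6.72 RPKM. Hilpda, a lipid-droplet protein of hypoxic cells, was not called in any of the 3.

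For the combination against 7aaRGD, the remaining leading members were Egln3 at 1.70 (SE 0.267, adjusted p = 0.000438), Slc16a3 at 1.52 (SE 0.192, adjusted p = 9.9e-05), Hk3 at 1.52 (SE 0.238, adjusted p = 0.000433), Tpi1 at 1.43 (SE 0.120, adjusted p = 1.34e-05), Ndrg1 at 1.41 (SE 0.143, adjusted p = 2.9e-05) and Hif1a at 1.33 (SE 0.127, adjusted p = 2.06e-05). The values of these genes given above do not overlap between the groups. All combination samples were above all 7aaRGD samples in 28 of 35 members and in 14.5% of all genes tested. Kdm3a was called at 0.23 although its groups overlapped.

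**Figure D4:**
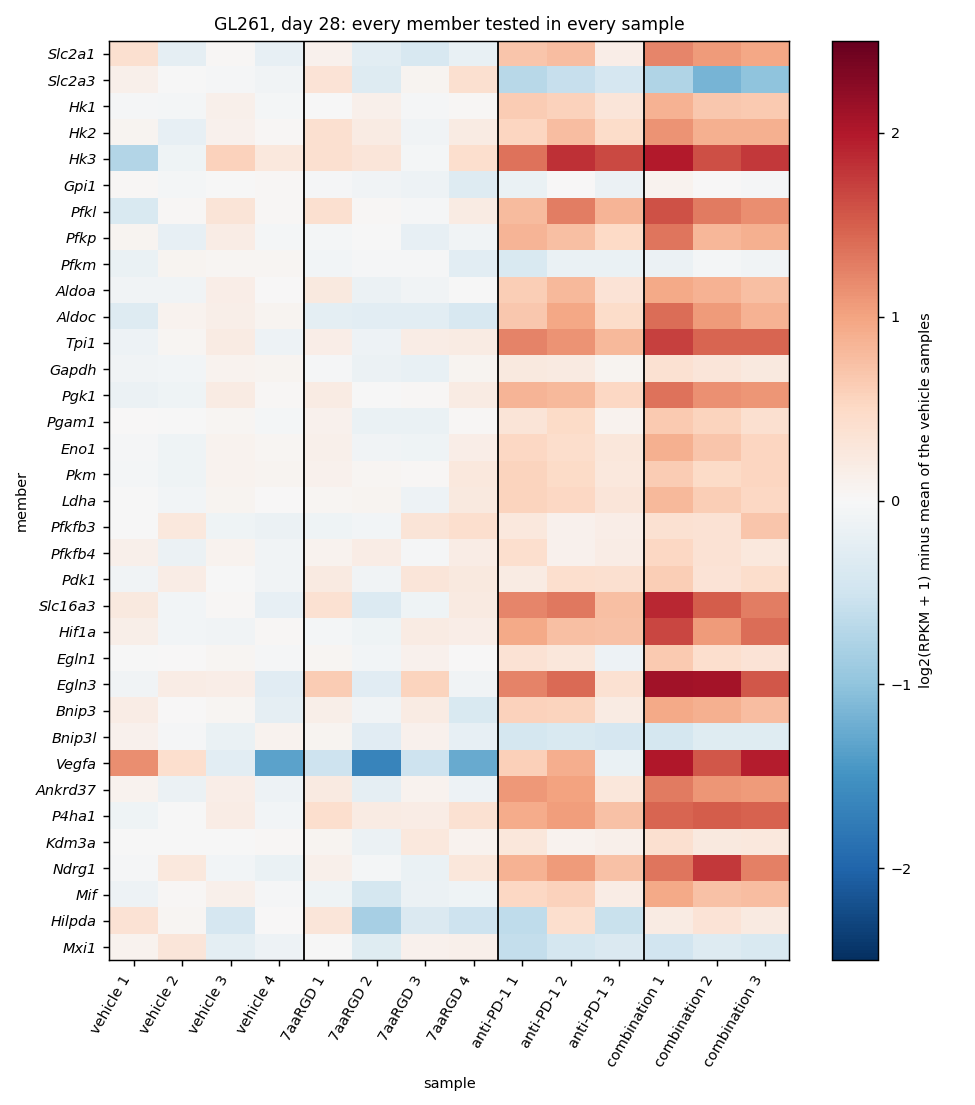
Heat map of the 35 members in the 14 samples at 28 DPI, colored by log2(RPKM + 1) minus the mean of the 4 vehicle samples. Red fields (higher) fill most of the combination columns and, more faintly, the anti-PD-1 columns, while Slc2a3, Bnip3l and Mxi1 are blue there.

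The samples of a group did not stand at the same height. Over the 35 members, combination sample 1 was the highest of its group in 28, and anti-PD-1 sample 3 the lowest of its group in 23. Leaving out single samples gave 18 to 26 members called for anti-PD-1 against vehicle (18 without anti-PD-1 sample 2), 30 to 32 for the combination against vehicle and 26 to 30 for the combination against 7aaRGD. Of the 26 members called under anti-PD-1, 18 were called in each of these fits, and Bnip3, Egln3, Mif, Mxi1, Pdk1, Pgam1, Slc2a1 and Slc2a3 were lost in some. Of the 32 called under the combination, 29 were called in each, and Bnip3l, Mxi1 and Pfkfb3 were lost in some. Of the 31 called for the combination against 7aaRGD, 26 were called in each, and Bnip3l, Kdm3a, Mxi1, Pdk1 and Pfkfb4 were lost in some.

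Whether 7aaRGD changed the response to anti-PD-1 was asked directly, by the combination against anti-PD-1 and by the interaction of the treatments. No member was called in the first by limma, and 4 of all 9737 genes were (0.0411%). At an unadjusted p under 0.05, 19 of 35 members passed, 18 of them higher in the combination, against 3.96% of all genes higher. The difference was positive for 34 of 35 members and for 38.9% of all genes, with medians of 0.30 and −0.04. Members are not independent of each other here. Combination sample 1 was the highest of its group in 28 of them, and anti-PD-1 sample 3 the lowest of its group in 23. These counts are therefore a description and no test. Vegfa differed by 1.39 (95% interval 0.30 to 2.47, adjusted p = 0.222), Egln3 by 0.90 (0.28 to 1.51, adjusted p = 0.164) and Slc2a1 by 0.55 (0.16 to 0.95, adjusted p = 0.176). The study, which used another test (NOISeq), lists Slc2a1 among the genes significantly higher in the combination than under anti-PD-1. Limma did not call Slc2a1 here. The samples are those of the study, so its direction is no independent evidence. For Vegfa, Egln3 and Slc2a1 the 3 combination samples were all above the 3 anti-PD-1 samples. The same order held for 15 of 35 members and for 6.23% of all genes, and 21.5% of all genes were apart in either direction. Named after their values were seen, P4ha1 came nearest to a call at 0.58 (0.37 to 0.79, adjusted p = 0.0528), and Hif1a differed by 0.57 (0.28 to 0.86, adjusted p = 0.0835). P4ha1 was called in 4 alternative analyses, and over the alternatives the smallest adjusted p of any member ran from 0.0269 to 0.198. Slc2a3, the single negative member, differed by −0.41 (−0.76 to −0.06, adjusted p = 0.254), and after it Bnip3l and Mxi1 were nearest to zero, at 0.07 each.

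The interaction, which is the difference of the combination beyond the sum of its parts, called no member and no gene (0%) by limma. At an unadjusted p under 0.05 it gave 13 members, 12 of them positive, against 2.31% of all genes positive. The members rest on the same samples as above, so this count too is a description and no test. The smallest adjusted p of a member was 0.588. The largest values were those of Vegfa, 2.37 (95% interval 0.94 to 3.81), and Hilpda, 0.86 (0.02 to 1.71), and the lowest those of Slc2a3, −0.53 (−0.995 to −0.07), and Hk3, −0.10 (−0.82 to 0.63). Slc2a1 was at 0.74 (0.22 to 1.26). Under 7aaRGD alone, Vegfa had been at 1.54 to 4.52 RPKM.

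Cell-type markers were measured beside these results at 28 DPI. Summed microglia markers were at 1678 to 2341 RPKM under vehicle, 1953 to 3384 under 7aaRGD, 1884 to 2697 under anti-PD-1 and 2519 to 2681 under the combination, with 2 of 10 called higher under anti-PD-1 and 6 under the combination. Monocyte and macrophage markers were at 715 to 1259, 655 to 1655, 1010 to 1878 and 904 to 1809 RPKM in the same order, with 4 of 10 called higher in each. Markers of T and NK cells were at 107 to 274, 80.7 to 217, 312 to 490 and 508 to 729 RPKM, with 1 and 4 of 5 tested higher. Most of that sum was the chemokine Ccl5, while the CD3 chains Cd3e and Cd3d and the coreceptor Cd8a were under 1 RPKM in every group on average. Of the 10 markers, 7 had a mean under 1 RPKM under vehicle, 8 under 7aaRGD, 5 under anti-PD-1 and 4 under the combination. For the combination against 7aaRGD, 5 of 5 tested were higher. Oligodendrocyte and tumor-type markers were lower, at 26.8 to 41.2, 26.1 to 29.5, 16.5 to 24.2 and 17.0 to 18.6 RPKM. No marker in these lists was at 0 in all samples of a group. The part of these shifts in the members' differences was not tested.

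Genes of neighboring pathways were also measured at 28 DPI. Over all genes, 10.8% were higher and 12.2% lower under anti-PD-1, and 17.5% and 25.8% under the combination. Against 7aaRGD, the combination had 13% higher and 23.5% lower. The lists are short, so their counts are given as a description beside these shares. Of 12 other glycolysis genes tested, 1 was higher and 4 were lower under anti-PD-1 and likewise under the combination, where Slc2a5 rose from a mean of 6.34 to 23.4 RPKM, Slc2a8 was lower by 0.75 and Pdk2, a relative of Pdk1, by 0.54. Of 17 other HIF pathway genes tested, 4 were higher and 1 lower under anti-PD-1, and 5 higher and 2 lower under the combination. Among them, Gys1 was higher by 1.04 and Ero1l by 0.98 under the combination, and Ddit4, an inhibitor of mTOR that stress and glucocorticoids also induce, went against the members: its mean was 100.5 ± 21.8 RPKM under vehicle (n = 4) and 11.5 ± 0.857 RPKM under the combination (SD, n = 3). In the pentose phosphate pathway, all of whose genes had been higher than in naïve brain, 1 was higher and 3 lower of 7 under the combination (Pgls −0.67, Taldo1 −0.45, Tkt −0.41), and 1 lower under anti-PD-1. The pyruvate dehydrogenase complex had 3 of 5 lower under the combination (Pdhb −0.32, Pdha1 −0.27, Dlat −0.27) and 0 called under anti-PD-1. Against 7aaRGD, the combination had 2 of the other glycolysis genes higher and 4 lower, 5 of the other HIF genes higher and 3 lower, 3 genes of the pentose phosphate pathway lower and 2 of the pyruvate dehydrogenase complex lower.

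7aaRGD on its own at 28 DPI called no member by limma, against 0.647% of all genes. Of 35 members, 3 passed an unadjusted p under 0.05, 1 of them higher, as did 14.6% of all genes, and the median was 0.03 against 0.01 over all genes. P4ha1 had the largest positive difference with 0.30 (95% interval 0.12 to 0.49, adjusted p = 0.130), and Hk3 followed with 0.27. Vegfa had the lowest with −0.99 (−1.92 to −0.05, adjusted p = 0.318), with vehicle samples spread from 2.13 to 16.8 RPKM, and Hilpda was at −0.35. Slc2a1 differed by −0.19 (−0.53 to 0.15). The intervals of the members had a median width of 0.466.

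At 21 DPI the peptides were compared with vehicle and with each other in GL261 tumors. Of 34 members tested, limma called 0 for 7aaRGD against vehicle (0.148% of all 9441 genes), 0 for 7aaRAE against vehicle (0%) and 0 for 7aaRGD against 7aaRAE (0%). At an unadjusted p under 0.05 the counts were 2 members (1 higher), 0 and 0, and over all genes 1280, 601 and 521. The members' medians were −0.08, −0.03 and −0.08, against 0.02, 0.00 and 0.02 over all genes.

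The enzymes' share of coding RPKM was 0.774% ± 0.0787 under vehicle, 0.727% ± 0.0540 under 7aaRGD and 0.767% ± 0.0863 under 7aaRAE (SD, n = 3 each). Slc2a1 was at 74.5, 91.7 and 105 RPKM under vehicle, 104, 106 and 77.5 RPKM under 7aaRGD and 103, 111 and 93.8 RPKM under 7aaRAE. The 3 groups overlapped, with differences from vehicle of 0.08 for 7aaRGD (95% interval −0.25 to 0.41) and 0.19 for 7aaRAE (−0.14 to 0.52), and −0.11 between the peptides (−0.44 to 0.22). P4ha1 was at 50.4, 42.9 and 50.6 RPKM under vehicle and 59.6, 63.1 and 52.3 RPKM under 7aaRGD, a difference of 0.28 (0.08 to 0.48, adjusted p = 0.257). All 7aaRGD samples of P4ha1 lay above the vehicle samples, without passing the threshold. The same order held for 12.5% of all genes. Aldoc went down, from 9.90, 12.5 and 10.4 RPKM to 8.34, 9.23 and 7.34 RPKM under 7aaRGD, at −0.36 (−0.68 to −0.04, adjusted p = 0.319), and Hilpda was at −0.37 (−0.85 to 0.10). Under 7aaRAE the largest positive differences were those of Slc2a1 and Vegfa (0.19 each) and the lowest those of Hilpda (−0.30) and Aldoc (−0.19). Between the peptides the extremes were Pfkp (0.13) and Pfkm (0.10) on one side and Egln3 (−0.37, −0.85 to 0.12) and Hk3 (−0.19) on the other.

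The scatter within groups ran through much of the list. In 27 of 34 members the lowest vehicle value was that of sample 1, and in 22 the highest was that of sample 3. Likewise, 7aaRGD sample 3 was lowest in 26, and 7aaRAE sample 2 the highest in 27. The median width of the members' intervals was 0.473.

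**Figure D5:**
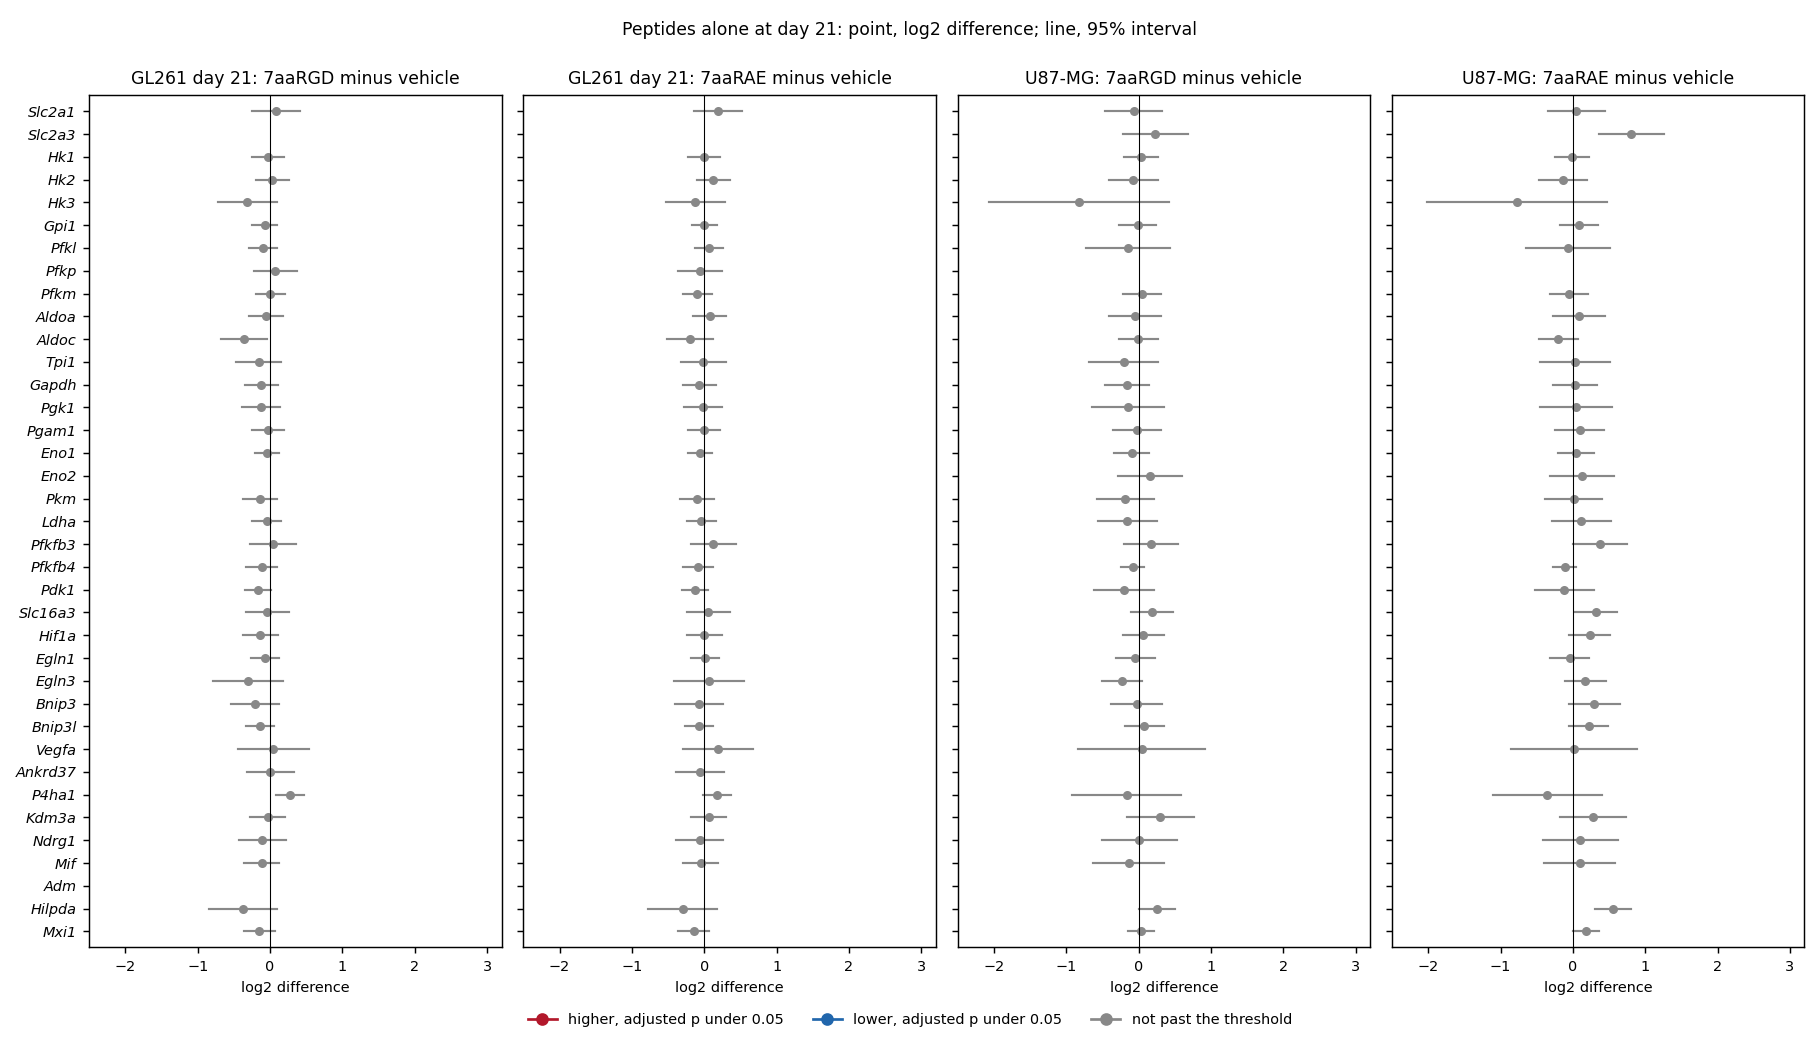
Differences in log2(RPKM + 1) between peptide and vehicle at 21 DPI, with 95% intervals as bars, for 7aaRGD and 7aaRAE in GL261 and in U87-MG tumors (4 panels, 34 members each). No member was called in any panel, and the U87-MG intervals are the wider ones.

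In U87-MG tumors of nude mice the same 3 comparisons again called no member by limma. Over all 9665 genes, 0% were called for 7aaRGD against vehicle, 0.0103% for 7aaRAE against vehicle and 0% for 7aaRGD against 7aaRAE. At an unadjusted p under 0.05 there were 1, 5 and 3 members, and 364, 746 and 327 genes. The members' medians were −0.04, 0.06 and −0.13, and those of all genes were within 0.01 of zero. The columns of this table repeat a group's name without a number, so samples are given in column order. Columns 1 and 2 shared 7.4% identical values under vehicle, 7.5% under 7aaRGD and 7.7% under 7aaRAE. With column 3, either shared 0%. Values below the constant made up 7.77% to 8.78% of columns 1 and 2, and 3.61% to 4.32% of column 3. This pattern ran through all groups of U87-MG, its cause was not tested, and the columns were fitted as plain samples.

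U87-MG enzyme shares were 0.270% ± 0.0128 under vehicle, 0.255% ± 0.0234 under 7aaRGD and 0.282% ± 0.0580 under 7aaRAE (SD, n = 3 each). Slc2a1 was at 21.7, 21.7 and 18.3 RPKM under vehicle, 20.6, 16.3 and 22.0 RPKM under 7aaRGD and 26.6, 16.3 and 22.0 RPKM under 7aaRAE, with differences of −0.07 (−0.46 to 0.32), 0.05 (−0.35 to 0.44) and −0.12 between the peptides (−0.51 to 0.28). These groups overlapped throughout. Under 7aaRAE, Slc2a3 was at 3.74, 5.02 and 4.71 RPKM against 2.15, 1.91 and 2.32 RPKM under vehicle, a difference of 0.81 (0.36 to 1.26, adjusted p = 0.328). Hilpda was at 5.49, 4.79 and 5.24 RPKM against 3.06, 3.15 and 3.36 RPKM, a difference of 0.56 (0.31 to 0.80, adjusted p = 0.201). In both genes all 7aaRAE samples were above all vehicle samples, though neither passed the threshold. The same order held for 5 of 34 members and for 7.00% of all genes. Slc2a3 passed it in 1 alternative, with the groups compared fitted alone (adjusted p = 0.0488, range over its alternatives 0.0488 to 0.954).

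Hk3 was the most uneven member of this table, at 26.9, 29.2 and 20.2 RPKM under vehicle, 28.3, 5.19 and 16.9 RPKM under 7aaRGD and 22.3, 7.04 and 17.8 RPKM under 7aaRAE. The second column of each peptide was far below the others. The differences from vehicle were −0.82 (−2.06 to 0.42) and −0.78 (−2.02 to 0.47), and −0.19 and −0.32 without those columns, an alternative chosen after the data were seen. Over the list, the second 7aaRAE column was the lowest of its group in 24 of 34 members and the second 7aaRGD column in 18, and the first 7aaRAE column was the highest in 26. Other extremes were Kdm3a (0.30), Hilpda (0.26) and Egln3 (−0.23) for 7aaRGD, P4ha1 (−0.35) for 7aaRAE, and Aldoc (0.20), P4ha1 (0.19), Slc2a3 (−0.58, −1.02 to −0.13) and Egln3 (−0.40, −0.68 to −0.12) between the peptides. Summed microglia markers ranged from 6834 to 11429 RPKM and monocyte and macrophage markers from 274 to 649 RPKM over the samples of this table. Eno1 is uncertain here: its near-copy Eno1b was at 19.5 to 25.8 RPKM, 48.7% to 57.6% of Eno1, and at most 0.331 RPKM in the GL261 tables. The median interval width was 0.710, wider than in the GL261 tables.

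The 4 neighboring lists had no called gene in any peptide comparison of the 3 tables, in the combination against anti-PD-1 or in the interaction. Adm, a vasodilator peptide and a classical HIF target, reached at most 0.834 RPKM in any sample and was listed at 0 in some of them. It therefore entered no test in the main fits.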

How the data were processed

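RNA of FACS-sorted CD11b+ cells was measured in 35 samples of 11 groups in 3 experiments. According to the methods of the study, the authors used Trimmomatic for trimming, STAR for alignment to mm10 and HTSeq 0.11.1 for strand-specific counts per gene. The authors deposited 3 tables whose values behave as RPKM plus a constant of 2. This unit was read from the values (rows without signal hold exactly 2). It is not stated in the sources used here, where normalized counts had been assumed. Some values lie below the constant, so a further adjustment was made before deposit, in a way that is not known. The effect of that adjustment on the spread within groups, and so on SE and p-values, was not tested. The constant was subtracted and values below it were set to 0. No read counts are given, so the depth per sample is unknown, count tests were not used, and no counting interval can be given. The number of columns of no sample was 0.

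Symbols were matched to the GENCODE annotation and, for a few rows, to RefSeq names or synonyms (98.8% of 54513 rows together), and the 21849 protein-coding rows entered the analysis. After log2(RPKM + 1), lmFit and trended eBayes of limma 3.58.1 (R 4.3.3) were run on the genes whose mean over the fitted samples reached 1 RPKM, and p-values were adjusted over all of them (Benjamini-Hochberg, threshold 0.05). Tumor-bearing groups of a table were fitted together and naïve samples with vehicle alone, giving 13 comparisons. The fit was tested on simulated data. Samples are pools or single animals, as the methods of the study say.

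The members and the lists of neighboring genes and markers were chosen with earlier results of these data known. Genes named with full statistics are the called members (the 8 with the largest difference where more were called), Slc2a1, and the 2 highest and 2 lowest differences of each comparison. From neighboring lists at most 3 called genes each are named. Same-numbered samples were not treated as pairs, since their residuals correlated above 0.1 in only 1 of 18 pairs at 21 DPI and 3 of 19 at 28 DPI, and the U87-MG columns carry no numbers. Alternatives were a pseudocount of 0.1 or 5 RPKM, a minimum mean of 5 RPKM or none, median-of-ratios scaling, all named rows, fits of only the groups compared or with naïve samples added, the replicate number as a block, 1 residual degree of freedom less, values below the constant kept, eBayes without a trend, and each sample left out in turn.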

Additional observations from a re-analysis of the deposited data

Results flagged for a closer look

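The groups of 4 mice at 28 DPI allow a test for a sample far from the other 3. Of 70 sets of 4 values, each 1 member in 1 group, 3 passed it, where chance alone passes about 1 in 20. Pfkm was at 3.68 RPKM in vehicle sample 1, below 4.43 to 4.52 RPKM in the other vehicle samples. Tpi1 was at 61.8 RPKM in 7aaRGD sample 2, below 75.4 to 77.1 RPKM in the others. Mif was at 107 RPKM in the same 7aaRGD sample, below 131 to 134 RPKM in the others. Among 131 pairs of contrasts in which a member could have moved in opposite directions without overlap, 0 did so.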

How the results depend on the processing

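For the called members, Slc2a1 and the highest and lowest members of each comparison, 2789 recomputed differences kept direction and side of the threshold, 94 fell short of it, 1 newly passed it and 12 changed sign, none of them a called difference. For the combination against anti-PD-1, 1 member (P4ha1) in place of 0 was called with a pseudocount of 5 (adjusted p = 0.0375), no filter (0.0471), a mean of at least 5 RPKM (0.0461) or median-of-ratios scaling (0.0269), where the smallest adjusted p ran from 0.0269 to 0.198 over the alternatives. For 7aaRAE against vehicle in U87-MG, 1 member (Slc2a3) was called with only the compared groups fitted (adjusted p = 0.0488, range 0.0488 to 0.954). Other members gained a call in some alternative: Adm and Egln1 against naïve, Egln1 and Pfkm for anti-PD-1 against vehicle, and Gpi1, Hilpda and Pfkfb3 for the combination against 7aaRGD. The cause was not tested.

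With single samples left out, the members called numbered 33 in each fit for vehicle against naïve, 18 to 26 for anti-PD-1 against vehicle, 30 to 32 for the combination against vehicle, 26 to 30 for the combination against 7aaRGD, 0 to 1 for the combination against anti-PD-1 (Hif1a without combination sample 2, adjusted p = 0.0444) and 0 in the others. Differences that were not called changed sign in some of these fits. At 21 DPI in GL261, Slc2a1 ranged from −0.0456 to 0.228 for 7aaRGD against vehicle and from −0.184 to 0.0385 for 7aaRGD against 7aaRAE. In the interaction at 28 DPI, Hk3 ranged from −0.285 to 0.146. In U87-MG, Slc2a1 ranged from −0.154 to 0.0518 for 7aaRGD against vehicle, from −0.111 to 0.228 for 7aaRAE against vehicle and from −0.298 to 0.0410 for 7aaRGD against 7aaRAE, and P4ha1 ranged from −0.105 to 0.565 for 7aaRGD against 7aaRAE. Without the second U87-MG column of both peptides, an alternative added after the data were seen, Slc2a1 was at 0.0518 for 7aaRGD against vehicle and 0 members were called in the 3 comparisons.

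The replicate number as a block, which does not pair these samples, left 33 members called against naïve, 24 for anti-PD-1 against vehicle, 31 for the combination against vehicle and 28 for the combination against 7aaRGD, with 0 in the other GL261 comparisons. No paired analysis was possible for U87-MG because its columns carry no replicate numbers. Counts over all genes moved more: 14 for 7aaRGD at 21 DPI became 0 to 125, 63 at 28 DPI became 0 to 93, 4 for the combination against anti-PD-1 became 0 to 26, and 8060 against naïve became 5287 with a mean of at least 5 RPKM. Depth is unknown, so low members such as Adm, Eno2 and Slc2a3 cannot be given a detection limit.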
